A study of Mus musculus with 2 samples.

Results

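The genes of the AP-1 transcription factors and of their immediate early companions lay in open chromatin in mouse calf muscle. The 10 genes are Fos, Fosb, Fosl1, Fosl2, Jun, Junb, Jund, Atf3, Egr1 and Ier2, named by their GENCODE symbols among 21911 protein-coding symbols. Chromatin accessibility was mapped by DNase-seq, in which the enzyme DNase I cuts nuclear DNA where it is exposed and the cuts are sequenced. The tissue was gastrocnemius, the large calf muscle, from male B6CASTF1/J mice at 14 days of age, a hybrid of the C57BL/6J and CAST/EiJ strains. There were 2 libraries, biological replicates 1 and 2 of a single group, with no treatment and no second condition, so the values below are descriptions and carry no test. The labels mark both libraries "3x Males" without saying whether tissue was pooled, and give both the same donor entry, so how far the replicates are independent is unknown. For each gene, peaks within 1000 bases of any annotated start were taken as promoter peaks. Regions outside the promoter windows of all protein-coding genes, within 50 kb of a start and holding a peak of both libraries, were taken as shared distal regions. A peak's strength is the authors' signal value, whose scaling no label or header states, so ranks within a library are given beside it.

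AP-1 is a family of dimers of basic leucine zipper proteins. The Fos proteins (Fos, Fosb, Fosl1 and Fosl2) pair with the Jun proteins (Jun, Junb and Jund), Jun proteins can also pair with each other or with Atf3, and the dimers bind AP-1 sites or the closely related cyclic AMP response element (CRE). Most of these genes, with Egr1 and Ier2, are immediate early genes, whose transcription rises soon after a stimulus without new protein synthesis. Their promoters are textbook targets of serum response factor (SRF), which binds CArG boxes, and of CREB and ATF proteins, which bind CREs. In skeletal muscle they are known to respond to contraction and to injury.

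The stretches below carry the motif matches that lay in called footprints of both libraries near the AP-1 genes. A footprint is a short run of bases, within open chromatin, that DNase I cut less than its surroundings. Sequences are those of the C57BL/6J reference (RefSeq copy of mm10), not of the CAST/EiJ allele, and are written 5′ to 3′ along the gene. Capitals mark matches, on either strand, to AP-1 (TGAGTCA), CRE (TGACGTCA), the short CRE (TGACGT), a CRE-like AP-1 site (TGACATCA), EGR (GCGNGGGCG), ETS (CCGGAA), the E-box CAGCTG, the GC box (GGGCGG), the TATA box (TATAAA), the CArG box or the MEF2 site. Each CRE also holds the short CRE, and an EGR match can overlap a GC box. Only matches that met a footprint of both libraries are in capitals, and other matches in these stretches stay in lower case. A match is a run of letters and not a bound site. The first group shows proximal stretches, chosen because these footprints lay within 420 bases before an annotated GENCODE start or, for Fosl2, just after it. All 28 bases of the Jund stretch are annotated as untranslated exon, although they lie before its GENCODE start.
Fos, CArG box, chr12:85473571-85473610, plus strand: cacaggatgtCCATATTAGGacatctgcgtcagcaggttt
Fos, GC box, short CRE, TATA box and E-box, chr12:85473794-85473876, plus strand: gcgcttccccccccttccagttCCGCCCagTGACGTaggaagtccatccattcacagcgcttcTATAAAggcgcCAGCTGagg
Fosb, EGR with GC box, and short CRE, chr7:19310353-19310452, minus strand: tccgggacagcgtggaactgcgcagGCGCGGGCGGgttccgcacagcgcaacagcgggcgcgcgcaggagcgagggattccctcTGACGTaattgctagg
Jun, GC box, CRE-like AP-1 site and MEF2, chr4:95052236-95052340, minus strand: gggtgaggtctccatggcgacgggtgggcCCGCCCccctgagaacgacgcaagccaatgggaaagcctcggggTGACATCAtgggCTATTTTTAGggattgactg
Jund, CRE, chr8:70698725-70698752, plus strand: cccacccccaTGACGTCAacccacaatg
Fosl2, AP-1, chr5:32135844-32135870, plus strand: gccattgtagTGACTCAtctcgggcag

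The second group shows distal stretches, chosen because they combined several footprinted matches in regions among the strongest of each locus.
Fos −18.5 kb, 3 short CREs, chr12:85455361-85455473, plus strand: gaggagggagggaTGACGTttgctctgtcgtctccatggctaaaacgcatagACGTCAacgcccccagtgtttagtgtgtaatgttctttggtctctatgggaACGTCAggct
Fos +12.2 kb, CArG box, GC box, and EGR with GC box, chr12:85486097-85486208, plus strand: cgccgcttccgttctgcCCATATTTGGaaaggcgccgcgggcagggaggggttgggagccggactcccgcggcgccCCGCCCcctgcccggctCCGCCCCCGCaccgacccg
Fosb −17.3 kb, GC box, short CRE and AP-1, chr7:19327342-19327386, minus strand: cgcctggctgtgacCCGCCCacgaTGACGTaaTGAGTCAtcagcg
Fosb −10.1 kb, short CRE, and EGR with GC box, chr7:19320118-19320220, minus strand: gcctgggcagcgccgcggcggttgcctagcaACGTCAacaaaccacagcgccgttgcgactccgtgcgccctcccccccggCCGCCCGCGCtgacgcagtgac
Junb +2.1 kb, GC box and CArG box, chr8:84976614-84976697, minus strand: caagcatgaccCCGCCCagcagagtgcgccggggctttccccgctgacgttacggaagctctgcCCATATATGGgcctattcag
Atf3 −6.4 kb, ETS, AP-1, GC box and short CRE, chr1:191224394-191224508, minus strand: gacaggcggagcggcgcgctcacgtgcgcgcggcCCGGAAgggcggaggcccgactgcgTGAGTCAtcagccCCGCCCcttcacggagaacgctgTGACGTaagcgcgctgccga

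All 10 genes had a promoter peak in both libraries. Over all protein-coding genes the share was 61.7%. The promoters stood high in the genome-wide ranking, with a median percentile of 91.8 in replicate 1 and 85.3 in replicate 2, while genes with a promoter peak in both libraries had a median percentile of 69.4 averaged over the libraries. The median signal of the 10 was 13.5 in replicate 1 and 5.63 in replicate 2, against 6.15 and 3.51 for the genes with a promoter peak in both. Jun, Jund, Atf3 and Egr1 were at or above the 90th percentile in both libraries, 4 of the 10, and Fosl1 was the weakest in both. In bulk tissue, more cells with an open promoter and more cutting per open promoter cannot be told apart.

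**Figure D1:**
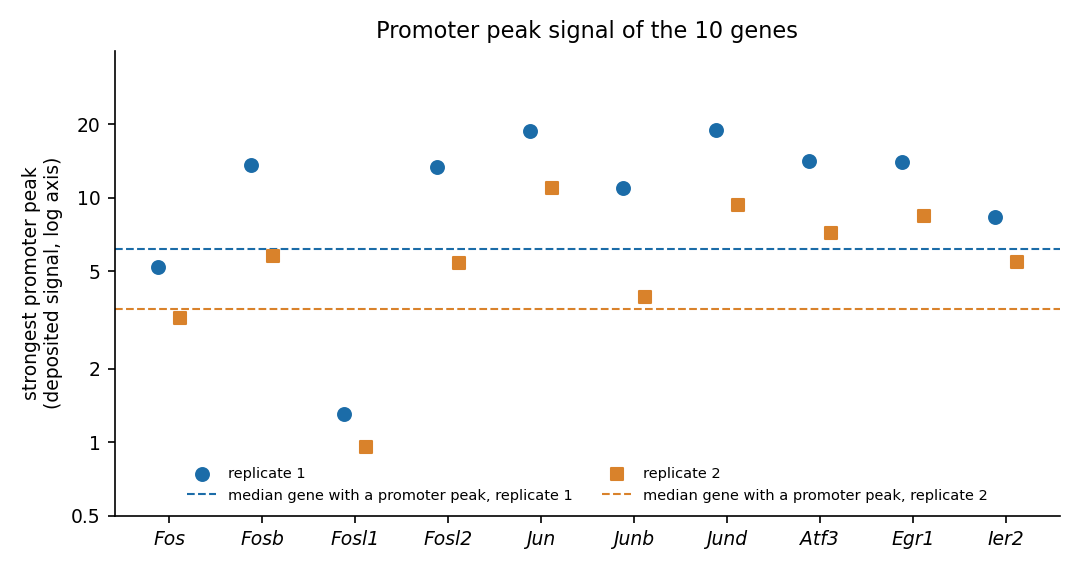
Signal of the strongest promoter peak of each gene (vertical log axis, deposited signal units) in replicate 1 (circles) and replicate 2 (squares); dashed lines give the median over genes with a promoter peak in both libraries, 6.15 and 3.51. Fos and Fosl1 lay below the dashed line of each library and the other 8 genes lay above it.

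Within the Fos family the promoters ranged widely. Fos, the founding member, had a promoter signal of 5.2 in replicate 1 and 3.23 in replicate 2, a percentile of 65.9 ± 1.32 (SD, n = 2). Fosb, which also encodes the long-lived variant ΔFosB, had 13.6 and 5.79 (percentile 89.1 ± 3.98, n = 2). The same peak did not lead at Fosb in both libraries. In replicate 1 the peak centred 889 bases downstream of the start at 19309600, in an intron, had 13.6. The peak 340 bases upstream of the start at 19310051 had 9.74 in that library. In replicate 2 these peaks had 4.93 and 5.79. Fosl2, which encodes Fra-2, had 13.4 and 5.43 (percentile 87.8 ± 5.37, n = 2), with weaker flanking peaks of 4.14 and 2.53 about 0.7 kb upstream and of 4.03 and 1.79 about 0.8 kb downstream of its start. Fosl1, which encodes Fra-1, had a single promoter peak of 1.3 and 0.954 (percentile 45.1 ± 1.24, n = 2). Its promoter was open in both libraries and ranked below the median gene of the genome.

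The strongest promoters of the 10 were those of Jun and Jund, while Junb ranked lower. Jun had 18.7 in replicate 1 and 11.0 in replicate 2, a percentile of 98.9 ± 1.05 (SD, n = 2), and every one of the 2001 bases around its start was listed at a false discovery rate (FDR) of 0.001 or less in both libraries. Jund, the Jun gene known for steady expression, had 19.0 and 9.36 (percentile 98.4 ± 0.0791, n = 2), with a further peak of 8.12 and 5.35 less than 0.5 kb upstream. Jun and Jund could not be ranked against each other, since Jund was higher in replicate 1 and Jun in replicate 2. Junb, a Jun protein known from muscle growth, had 11.0 and 3.91 (percentile 79.3 ± 9.38, n = 2). Junb had the widest spread of percentile between the libraries among the 10 genes. Jun also carried a separate upstream peak centred 1.1 kb before the start, of 6.22 and 4.66.

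Atf3, a stress-induced partner of Jun proteins, was open at 1 of its 2 annotated starts. The downstream start, at position 191183340 on chromosome 1, had a promoter signal of 14.1 in replicate 1 and 7.19 in replicate 2 (percentile 93.1 ± 0.357, n = 2). The upstream start, at position 191218039, had no peak within 1000 bases in either the strict or the permissive list of either library, and no base there was listed in either FDR track, which runs to an FDR of 0.05. Accessibility was thus called at the start that lies inside the longer transcript and not at that transcript's own start.

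Egr1, a zinc finger factor that binds GC-rich EGR sites, had 14.0 and 8.44 at the first of its annotated starts along the gene, 34859823 on chromosome 18 (percentile 94.9 ± 3.06, SD, n = 2). The second start, 34861207, carried separate peaks of 8.13 and 4.94, so both Egr1 starts were open. Ier2, immediate early response 2, had 8.36 and 5.48 (percentile 81.1 ± 4.51, n = 2), with the strongest peak at the same 200 bases in both libraries. The area within 1000 bases of the Fosl1 start that was listed at an FDR of 0.001 or less was 254 bases in replicate 1 and 348 in replicate 2. At Ier2 it was 1448 and 1846 bases, and at Fos 964 and 1566. Among the annotated starts with a promoter peak, the Fosl1 start had the narrowest listed stretch in both libraries.

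The members were compact genes. Jun, Junb, Jund and Ier2 each consist of a single exon, and the median length of the 10 was 4273 bases against 16664 bases over all genes. RefSeq promoter windows (250 bases before to 50 after the RefSeq start, mm10) were matched for 7 of the 10 genes, without Fosl1, Egr1 and Ier2. Of these windows 6 had a GC content between 58.7% for Fos and 68.3% for Fosb, above the median of 57.0% over 20150 windows of protein-coding symbols. The Jund window had 46.7%, and its RefSeq start lies 1210 bases from the GENCODE start, outside the peaks described here. The Fosl2 starts of the annotations differ by 671 bases. Within these windows the Jun CRE-like AP-1 site occurred in 3.03% of all windows and the MEF2 match of Jun and Atf3 in 0.481%. The short CRE was present in the windows of Fos and Atf3 and in 8.73% of all windows, and the EGR match in those of Fosb and Fosl2 and in 7.81%. AP-1 and the CArG box, found in 4.65% and 1.51% of all windows, were in none of the 7. The Fos CArG box lies upstream of its window.

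All 10 promoters held at least 1 called footprint in both libraries, against 61.1% of all genes. Only a gene with a promoter peak can hold one here. Of the 13512 genes with a promoter peak in both libraries 13385 held one in both, so this count largely repeats that of the peaks. The median promoter of the 10 held 8.5 footprints over 139.5 bases in replicate 1 and 10 over 179.5 bases in replicate 2. Genes with a promoter peak in both libraries had medians of 5.0 over 83.0 bases and 6.0 over 94.0 bases. Of the 93 footprints in replicate 1, 60 overlapped one of replicate 2, and 60 of the 100 in replicate 2 overlapped one of replicate 1. A promoter footprint here is one that overlaps a promoter peak of the same library, and a motif match was counted where at least 1 of its bases lay in such a footprint of each library. Shares below are also given over open genes, those with a promoter peak in both libraries, since only these can have such a match. Footprints outside the peaks were called too, and matches that met those are named apart. Counts of motif matches rise with the footprinted area, and the larger area at these promoters moves with the motif counts below. Its part in them was not tested.

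At Fos some of the footprints met elements for which its promoter is known. The short CRE at −63 (the middle of the match, counted along the gene from the annotated start) lay wholly inside a footprint in both libraries, of 35 bases in replicate 1 and 15 bases in replicate 2. A GC box at −71 met the same footprints. The TATA box at −30 lay wholly inside footprints of 24 and 27 bases, which also met the E-box at −19. The CArG box at −304, the position of the serum response element to which SRF binds, met footprints of 11 and 15 bases with 5 of its 10 bases in each library. A CArG box in a promoter footprint of both libraries was found at 1 of the 10 genes (Fos). Its shares were 0.21% of all genes and 0.34% of open genes. With footprints outside the peaks counted too, Egr1 joined Fos (2 of the 10, and 0.283% of all genes). The Egr1 match lay at −364 from the second start and met its footprints with 2 bases in replicate 1 and 1 base in replicate 2. Other CArG boxes at −402, −100 and −78 from that start each met a footprint of 1 library. The TATA box was found at 1 of the 10 (Fos), at 0.721% of all genes and at 1.17% of open genes. At Junb a TATA box at −27 lay wholly inside footprints of 26 and 24 bases, of which that of replicate 2 lay outside the strict peaks. With it the TATA box was found at 2 of the 10 and at 0.895% of all genes.

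The Jun footprints close to the start nearly coincided between the libraries. Its CRE-like AP-1 site at −41 and a MEF2 match at −28 lay wholly inside a single footprint of 37 bases in each library, displaced by 1 base between them (95052239 to 95052275 and 95052240 to 95052276 on chromosome 4). Both elements are known from the Jun promoter, where Jun and ATF proteins bind the CRE-like AP-1 site and MEF2 factors, the muscle and neuronal regulators, the other. A GC box at −86 lay in the next footprint upstream, of 36 bases in each library. Promoter footprints of both libraries held the CRE-like AP-1 site at 1 of the 10 genes (Jun). Its shares were 0.361% of all genes and 0.585% of open genes. The MEF2 match was found at 1 of the 10 (Jun), at 0.119% of all genes and at 0.192% of open genes. A MEF2 match at −10 of the open Atf3 start lay wholly inside footprints of 39 and 40 bases, of which that of replicate 1 lay outside the strict peaks. With footprints outside the peaks counted too, the MEF2 match was found at 2 of the 10 (Jun and Atf3) and at 0.155% of all genes.

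The CRE in its full form marked Jund and Ier2. The Jund CRE at −210 lay wholly inside footprints of 26 and 28 bases. The Ier2 CRE at −41 lay wholly inside footprints of 36 and 35 bases that began at the same coordinate, 84662868 on chromosome 8, and were the longest promoter footprints of Ier2 in each library. The full CRE was thus footprinted at 2 of the 10 promoters, at 2.27% of all genes and at 3.69% of open genes. The short CRE, counted with these, was footprinted at 5 of the 10 (Fos, Fosb, Jund, Egr1 and Ier2). Its shares were 5.02% of all genes and 8.15% of open genes. At Fosb it lay at −314 from the start at 19310051, wholly inside footprints of 37 and 22 bases. It lay again at +892 from the start at 19309600, wholly inside footprints of 24 and 25 bases. At Egr1, at −64 from the second start, footprints of the libraries covered only 5 and 2 of its 6 bases. Footprints outside the peaks added Jun, at −301, and Atf3, at +2 and wholly inside the footprints that held its MEF2 match, for 7 of the 10 and 5.65% of all genes.

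Matches to the AP-1 site itself were rare in promoter footprints, at 0.351% of all genes and 0.57% of open genes. The only gene of the 10 with one in a promoter footprint of both libraries was Fosl2, at +56 within the annotated 5′ untranslated exon. That match met the edge of footprints of 29 and 26 bases, with 4 and 2 of its 7 bases, so none of the 10 promoters had an AP-1 match wholly inside a footprint of both libraries. The EGR match, the letters bound by Egr1 and its relatives, was footprinted at 4 of the 10 promoters (Fosb, Fosl2, Jund and Egr1). This match was footprinted at 5.92% of all genes and at 9.6% of open genes. It lay wholly inside the footprints at Fosb (−372, footprints of 30 and 33 bases) and at Egr1 (−597 from the second start, 20 and 14 bases). With footprints outside the peaks Jun was added, for 5 of the 10 and 7.22% of all genes. The GC box, bound by Sp1 and related factors, was footprinted at 7 of the 10. It was footprinted at 33.4% of all genes and at 54.2% of open genes, so most of that contrast goes with having a promoter peak. Over all motifs searched, 40 matches at these promoters met a promoter footprint of both libraries and 23 of them lay wholly inside both.

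**Figure D2:**
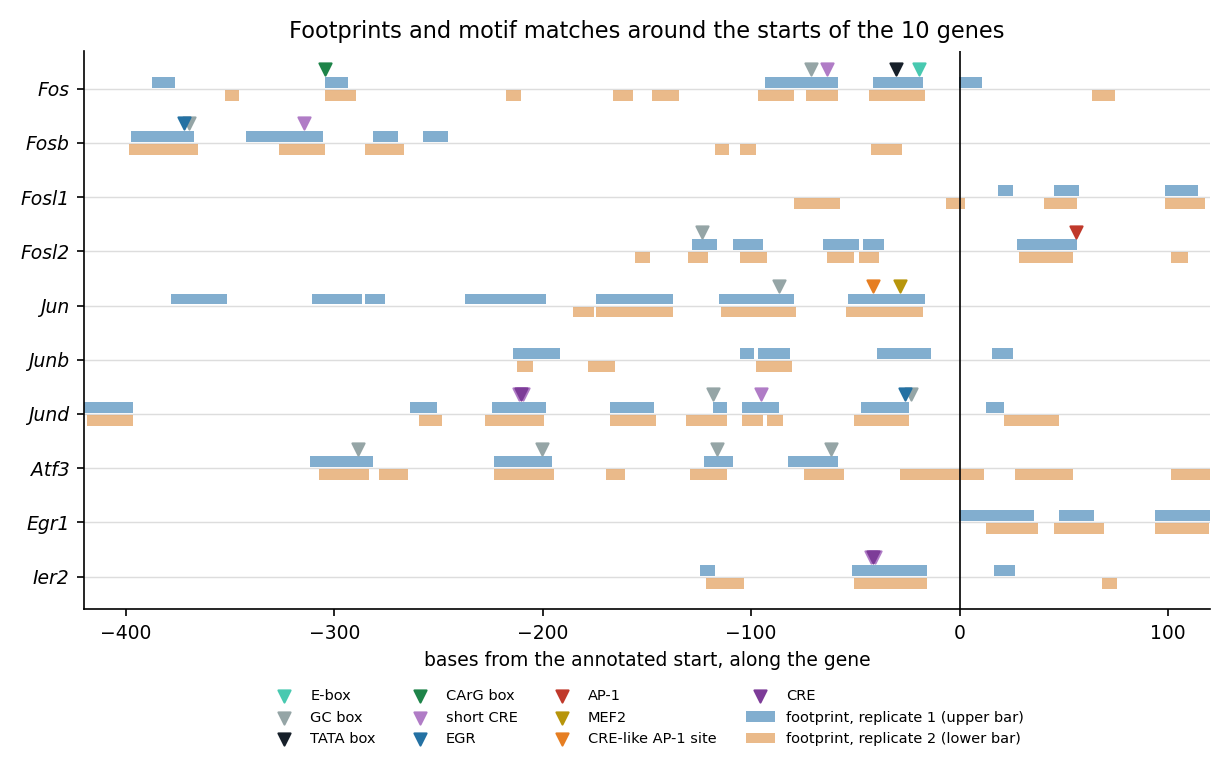
Footprints overlapping promoter peaks of replicate 1 (upper bars) and replicate 2 (lower bars) from 420 bases before to 120 bases after a start of each gene (horizontal axis, bases along the gene), with triangles over motif matches that met such a footprint of both libraries; the start drawn is the most upstream one with a peak in both. The bars of Jun over −41 and −28 and those of Ier2 over −41 nearly coincide between the libraries, and Fosl1, Junb and Egr1 have no triangle in this span.

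The surroundings of these genes held many further open regions. The 10 genes had 85 shared distal regions within 50 kb of a start, a mean of 8.5 and a median of 7.5 per gene, against a mean of 2.77 and a median of 2.0 over all protein-coding genes. Every member had at least 1, against 73.4% of all genes. Ier2 had 16, Fosb 14, Jund 13 and Fos 11, counts at the 99.7th, 99.4th, 99.1st and 98th percentile of all genes. Junb had 8, Fosl2 7, Jun and Atf3 5 each, and Egr1 and Fosl1 3 each. Fosl1 and Egr1 therefore stood only at the 63rd percentile. Upstream of the nearest start lay 48 of the 85 and downstream 37, with 57 outside protein-coding genes, 8 in introns and 20 touching an exon. A footprint of each library was found in 82 of the 85, and 15 lay within 1 kb of a noncoding start. The shares over all distal regions are not given for these positions and counts, so they are not set against the genome. The median signal of the 85 was 2.47 in replicate 1 and 1.77 in replicate 2, against 1.28 and 0.936 over all 44392 shared distal regions.

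**Figure D3:**
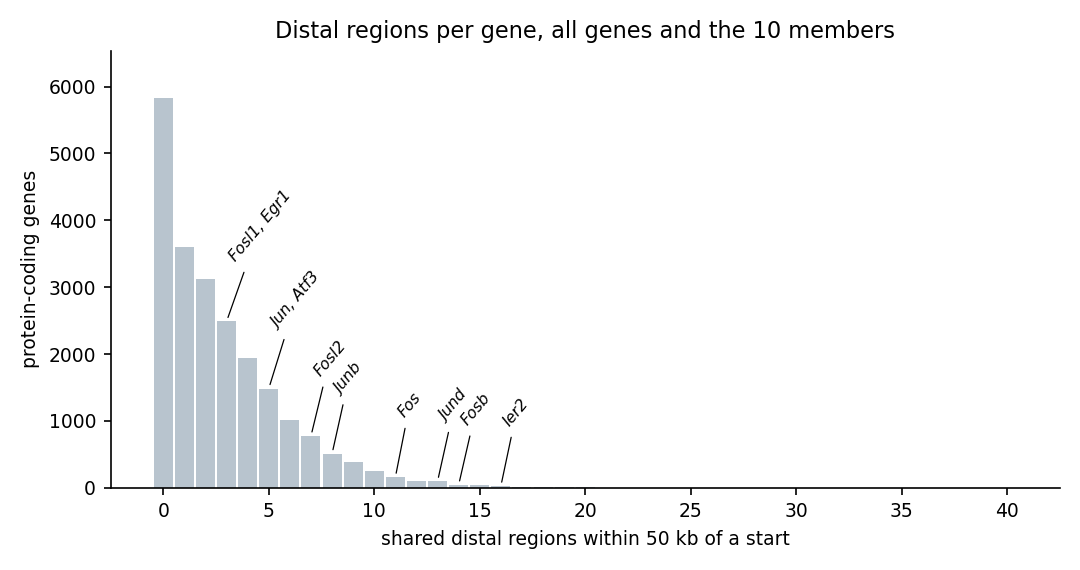
Number of protein-coding genes (vertical axis) with a given number of shared distal regions within 50 kb of a start (horizontal axis); labels mark the bars that hold the 10 genes. Ier2 with 16, Fosb with 14, Jund with 13 and Fos with 11 sit in the thin right tail.

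**Figure D4:**
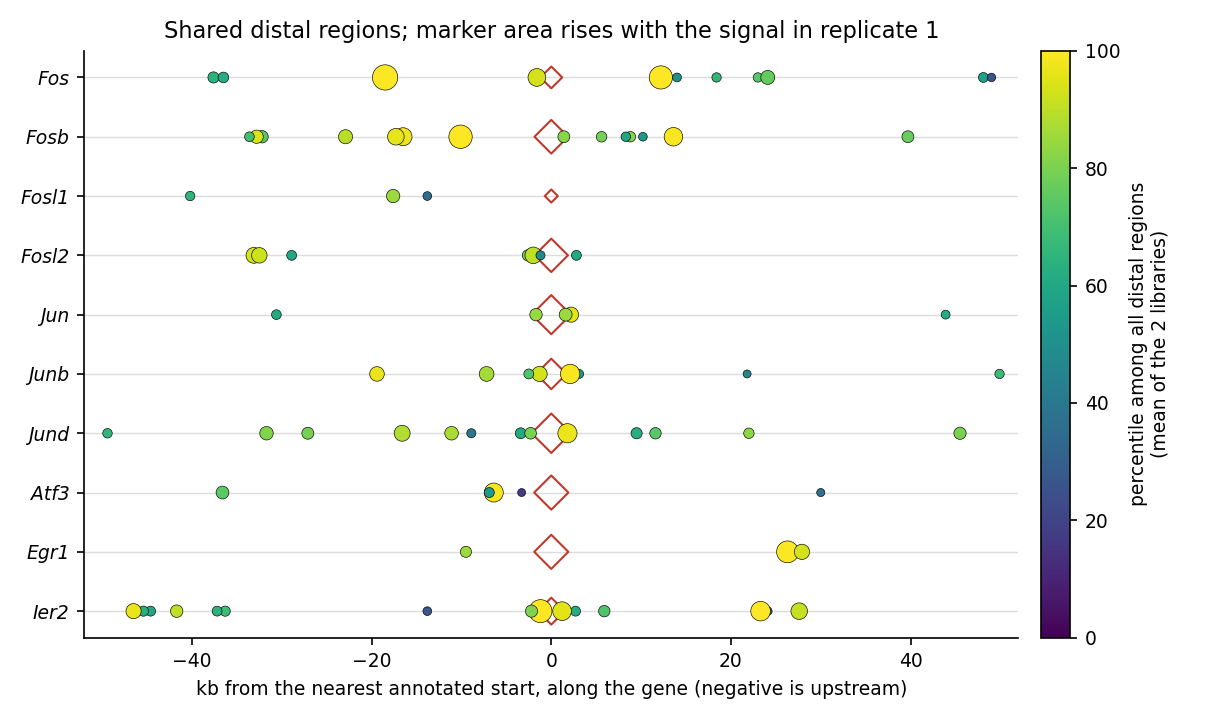
Shared distal regions of each gene (circles) by distance from the nearest annotated start in kb, coloured by percentile among all 44392 distal regions and sized by the signal in replicate 1; open diamonds are the promoters on the same size scale. The circles at −18.5 and +12.2 kb of Fos and at −1.2 kb of Ier2 are larger than the diamonds of their genes.

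At Fos the strongest peaks of the locus lay away from the promoter. The region 18.5 kb upstream had 15.5 in replicate 1 and 6.5 in replicate 2, and the region 12.2 kb downstream had 12.9 and 7.08, against 5.2 and 3.23 at the promoter. Both exceeded the promoter in each library, by factors of 2.97 and 2.01 for the upstream and 2.49 and 2.19 for the downstream region. Both lie outside protein-coding genes, and no other protein-coding promoter with a shared peak lies within 50 kb of the Fos start. Fos is known in neurons for enhancers on either side of the gene that respond to activity. The upstream region held 3 short CREs in footprints of both libraries, at −18513, −18474 and −18423, each cut by a footprint edge in at least 1 library, and 3 GC boxes. The downstream region held a CArG box wholly inside footprints of 36 and 34 bases and an EGR match wholly inside footprints of 40 and 41 bases. The region 1.6 kb upstream had 7.16 and 2.57, above the promoter in replicate 1 and below it in replicate 2.

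Fosb had a cluster of regions upstream. The strongest, 10.1 kb upstream, had 13.1 in replicate 1 and 7.37 in replicate 2, below the promoter in replicate 1 and above it in replicate 2. Its footprints of 33 bases in each library met a short CRE, and an EGR match lay wholly inside footprints of 32 and 33 bases. Regions at −16.5 kb (7.39 and 4.16) and −17.3 kb (6.19 and 3.52) followed. In the latter an AP-1 match and a short CRE, 2 bases apart as printed above, met the same footprint of 32 and 27 bases, with 6 and 3 of the 7 bases of the AP-1 match and all of the short CRE. The region 13.6 kb downstream (7.89 and 6.92) touches an exon of Rtn2, a neighbouring gene of the endoplasmic reticulum, and 7 regions at the promoters of 4 neighbours (Cd3eap, Ercc1, Rtn2 and Vasp) lay in the same span, so the regions could not be assigned to 1 gene. At Fosl2 the region at −2.0 kb (6.18 and 2.09) led in replicate 1 and that at −33.1 kb (5.54 and 2.64) in replicate 2. At Fosl1 2 of the 3 distal regions exceeded the weak promoter in both libraries, and 14 regions at the promoters of 7 other genes lay within 50 kb.

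No distal region of the Jun genes exceeded the promoter in both libraries. Junb had a region 2.1 kb downstream of its start, beyond the 3′ end of its annotated transcript, of 8.76 in replicate 1 and 5.51 in replicate 2. In replicate 2 this exceeded the Junb promoter, at 3.91. It held a CArG box that met footprints with 10 of 10 bases in replicate 1 and 9 of 10 in replicate 2. A serum-responsive element downstream of Junb is known from fibroblasts. Jund had a region at +1.8 kb, across its 3′ end, of 8.52 and 3.53, with an EGR match wholly inside footprints of 39 and 42 bases. Jun had a region at +2.2 kb, within its single exon, of 4.97 and 3.66, and its other 4 regions were weaker in both libraries.

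At Atf3 the strongest distal region lay 6.4 kb upstream of the start that was closed, and had 8.36 in replicate 1 and 5.14 in replicate 2. It spans 2 annotated starts of the long noncoding gene D730003I15Rik. A short CRE lay wholly inside footprints of 23 and 24 bases, an ETS match met footprints of 36 and 40 bases, and an AP-1 match met the edge of a footprint with 2 of its 7 bases in each library. At Egr1 the region 26.3 kb downstream had 11.3 and 6.46, the 99.5th and 99.4th percentile of all distal regions, and a companion at +27.9 kb had 5.09 and 2.83. At Ier2 the region 1.2 kb upstream had 12.6 and 7.49 and the region 23.3 kb downstream, in an exon of the calcium channel gene Cacna1a, 8.95 and 7.99, both above the Ier2 promoter in each library. The region 1.2 kb upstream held 2 ETS matches wholly inside footprints of both libraries and lies within 1 kb of a noncoding start (Gm26664).

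A shared distal region stronger than the promoter in both libraries was found at 3 of the 10 genes (Fos, Fosl1 and Ier2), against 17.8% of the 13512 genes with a promoter peak in both. With 10 genes this difference is about 1 gene and nothing is read from it. In the footprints of the 85 distal regions the short CRE was found in 6 (7.06%) against 0.863% of all distal regions, the CArG box in 2 (2.35%) against 0.248%, the EGR match in 3 (3.53%) against 0.532%, ETS in 3 (3.53%) against 0.987% and the GC box in 13 (15.3%) against 5.68%. The AP-1 site was found in 2 (2.35%) against 1.34%. The E-box CAGCTG, the form bound by MyoD and its relatives in muscle, was found in 4 (4.71%) against 6.74%, and the TEAD match (GGAATG) in none against 2.35%. The regions near these genes were also stronger than the average distal region, and the part of signal in these shares was not tested.

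Most of the listed genes that act with the 10 also had a promoter peak in both libraries, with percentiles that ranged widely. Of 16 other basic leucine zipper genes 15 had a promoter peak in both libraries, led by Atf7 (18.6 in replicate 1 and 10.2 in replicate 2), Atf2 (16.9 and 8.11) and the oxidative stress factor Nfe2l2 (19.4 and 7.09). Batf, an AP-1 gene of lymphocytes, had none in either. Of 35 other immediate early genes 34 were open in both, led by the antiproliferative gene Btg1 (20.6 and 8.16), Klf2 (18.3 and 8.04) and the NF-κB inhibitor gene Nfkbia (15.4 and 8.67), while the neuronal gene Npas4 had none. All 19 genes of upstream kinases, SRF and its partners were open in both, led by Map2k7 (23.5 and 10.9), Map2k1 (23.8 and 9.52) and Mapk14 (21.1 and 9.35). The median percentiles of these lists were 83.1, 82.9 and 80.5, against 88.5 for the 10 genes. The mean number of distal regions was 8.5 for the 10 and 6.69 for the other immediate early genes, with medians of 7.5 and 7.0. It was lower for the kinases and SRF partners (4.32) and the other basic leucine zipper genes (3.69), each with a median of 4.0. The muscle fibre and fibroblast markers checked below had means of 9.0 and 8.5, and the other marker lists had lower means. Many distal regions were thus not particular to the 10.

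Peak and footprint lists hold no read counts, so the depth behind each value is unknown. The strict lists held 82498 peaks in replicate 1 and 88198 in replicate 2, and the footprint lists 320456 and 384435. Promoter signal was 1.83 times higher in replicate 1 than in replicate 2 in the median gene with a promoter peak in both. Relative to that, the log2 ratio of the 10 genes ran from -0.42 at Fosl1 to 0.62 at Junb, inside the range from the 5th to the 95th percentile of these genes (-0.86 to 0.63). The tissue label was checked on marker promoters. All 11 muscle fibre markers were open in each library, and so were 4 of 4 fibroblast, 3 of 4 endothelial, 3 of 3 smooth muscle, 2 of 3 Schwann cell, 1 of 3 satellite cell and 1 of 4 leukocyte markers and 0 of 7 erythroid, adipocyte and hepatocyte markers. The 10 genes are used by many cell types, so which cells of the tissue carried their open sites was not tested.

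**Figure D5:**
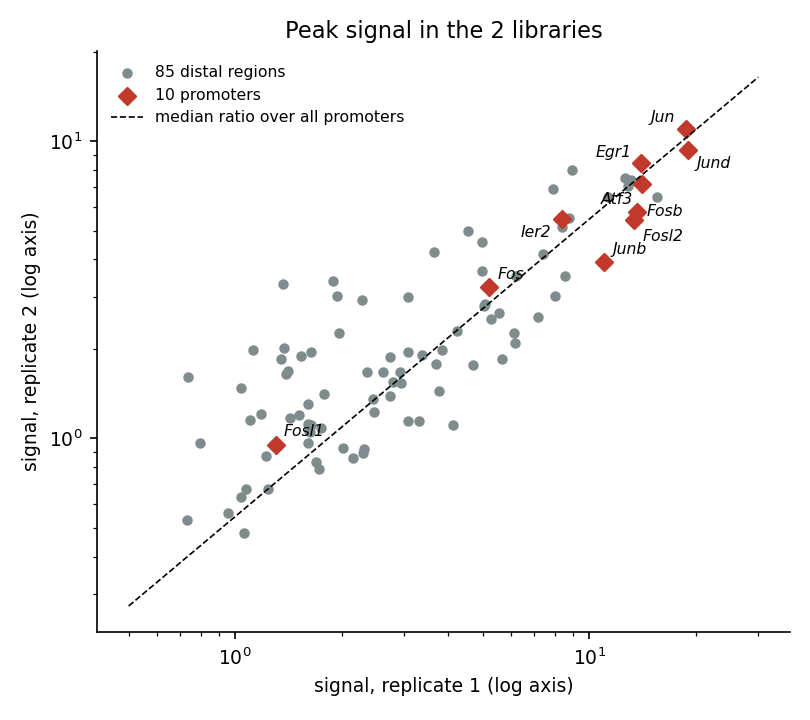
Signal in replicate 1 (horizontal log axis) against replicate 2 (vertical log axis) of the 10 promoters (diamonds) and their 85 shared distal regions (dots); the dashed line is the median ratio of 1.83 over the promoters of all genes with a peak in both libraries. The promoters lie close to the line, with Junb, Fosl2 and Fosb farthest below it and Fosl1 farthest above it. The weaker distal regions scatter more widely around it.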

How the data were processed

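DNase-seq of 2 libraries from mouse gastrocnemius was analysed. Peaks were called by the authors on each library alone, on mm10, per the file headers and accompanying notes (aligner, peak caller: not given in the sources used here). Deposited lists give 1 signal value per peak. Each library has a strict list (fewer peaks) and a permissive one. The authors' track of the false discovery rate, a q-value per base, runs to 0.05. Footprints were deposited with a constant p-value or q-value threshold of 0.01.

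From these, promoter peaks (strict list, 1000 bases on either side of any GENCODE M21 basic start), percentiles of the strongest promoter peak over 21911 protein-coding symbols (genes without a peak share a percentile of 18.3), and shared distal regions (peaks of both libraries merged at 1 base of overlap, within 50 kb) were computed with Python 3.11.15, NumPy 2.4.6 and pandas 2.3.3. Strict lists can hold peaks that overlap each other. Motif matches needed at least 1 base, in each library, in a footprint that overlapped a strict peak of that library at the promoter or distal region; footprints within 1000 bases of a start but outside peaks were added as an alternative chosen after seeing the data. Distal regions were placed by exons of protein-coding genes only. The functions were tested on simulated data. Replicate numbers come from the labels; replicate 1 was sequenced on more than 1 instrument model. The 10 genes, lists and motifs were chosen with earlier results of these data known. All 10 genes were described; of each related list, the 3 highest promoter percentiles and up to 2 closed genes were named. Alternatives changed windows, lists, overlaps and libraries.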

Additional observations from a re-analysis of the deposited data

How the results depend on the processing

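All 10 genes kept a promoter peak and a promoter footprint in both libraries under each alternative tried for those counts, and the counts of the 3 related lists did not change. The members' median promoter percentile ran from 86.8 with windows of 250 bases to 90.3 with windows of 2500 bases, and from 85.3 to 91.8 when either library was left out. The 85 distal regions became 48 with a window of 20 kb and 143 with 100 kb. The mean per gene then was 4.8 and 14.3, against 1.13 and 5.46 over all genes. When promoter windows of 2500 bases were left out, 58 regions were counted (a mean of 5.8 against 2.38). The permissive lists gave 126 (a mean of 12.6 against 4.4). Requiring a match to lie wholly inside a footprint left 0 of the 10 promoters with AP-1, 0 with a CArG box, 2 with EGR and 4 with the short CRE. With either library left out, promoters with a CArG box in a footprint numbered 2 to 3, so that count rests on agreement between the libraries. For these stricter and single-library counts the shares over all genes are not given, so the counts are not set against the genome. With footprints outside the peaks counted too, an alternative chosen after seeing the data, a CArG box was found at 2 promoters (0.283% of all genes). The limits are 2 libraries of 1 group, an unstated signal scale, no read counts, and letter matches in the reference allele of a hybrid. No paired analysis was possible because the 2 libraries form a single group.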

Other observations

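Several open regions near these genes were called in a single library. Fosl1 had 5 distal regions in replicate 1 and 9 in replicate 2 when the libraries were counted alone, of which 3 were shared. Junb had 15 and 9, with 8 shared, and Fosl2 12 and 10, with 7 shared. At Fos the counts were 11 and 13, with 11 shared, and at Jun 5 and 7, with 5 shared. Over the 10 genes the mean was 11.0 in replicate 1 alone, 11.1 in replicate 2 alone and 8.5 shared. Over all protein-coding genes it was 3.74, 3.93 and 2.77, so regions of a single library were not particular to these genes.

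Junb also differed between the libraries at its own promoter, with 3 strict promoter peaks in replicate 1 and 1 in replicate 2. A further replicate 2 peak, of 1.06, overlapped a replicate 1 promoter peak of 1.42 but ended outside the window of 1000 bases. The count thus depends in part on the window edge. Within 1000 bases of the Junb start 1421 bases were listed at an FDR of 0.001 or less in replicate 1 and 660 in replicate 2.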
